A study of Mus musculus with 16 samples.

Results

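The genes described here are 10 secretory genes of mucus-producing epithelium, namely Muc5ac, Muc5b, Muc1, Muc4, Fcgbp, Tff1, Tff2, Agr2, Olfm4 and Pigr, measured by RNA-seq in KPC1199 cells with and without a guide against Sin3b. They were taken by gene name and all 10 were found in both count tables, among 55414 named features of the one and 56980 of the other. They had been picked with their differences between the guides and with IFNγ in these data already known, so those differences are given as a description and without a p-value. KPC1199 is a mouse pancreatic ductal adenocarcinoma (PDAC) line grown from a spontaneous pancreatic tumour of a mouse with Pdx-cre and a Trp53 R172H allele, and both guides were therefore studied on a mutant background. Cells carried a lentiviral CRISPR-Cas9 construct with a control guide (sgCtrL) or with 1 guide against Sin3b (Sin3Bsg1), and whether a line was a clone was not given in the sources used here. In a first experiment 2 sgCtrL and 2 Sin3Bsg1 libraries came from untreated cells. In a second experiment there were 3 libraries for each guide without IFNγ (−IFNγ) and 3 for each guide after 10 ng/ml IFNγ for 24 hours (+IFNγ). Nothing in the labels says that replicates came from separate cultures, so errors and p-values measure only the spread between these libraries.

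Mucins are long proteins densely decorated with O-linked sugars. Muc5ac and Muc5b are secreted and polymerise into the gel of mucus, whereas Muc1 and Muc4 stay anchored in the apical membrane. Goblet cells of the intestine and airway and pit cells of the stomach also release trefoil factors, Fc-gamma-binding protein and other partners of the gel, and similar genes are switched on in metaplastic and neoplastic lesions of the pancreatic duct. Sin3b encodes a scaffold of histone deacetylase complexes, and IFNγ is a cytokine of activated lymphocytes that acts through a receptor of its own.

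The promoters show what lies just upstream of the members that stood apart from the others. RefSeq sequences of GRCm38.p6 held 6 of the 10 members, and each is read over the 250 bases before the transcription start. Pigr is shown as the only member called higher with IFNγ when all libraries were used, a call that is no test result for the reason given below. Olfm4 is shown as the member with the largest difference of level between the experiments, and Muc1 and Muc4 as the membrane mucins. In this order the windows of Pigr, Olfm4, Muc1 and Muc4 lie on the plus strand at chr1:130826434-130826683, chr14:80000052-80000301, chr3:89228806-89229055 and chr16:32735636-32735885. Capitals mark a match, on either strand, to one of 4 short patterns. The first is TTCNNNGAA, a STAT site, and the others are an E-box, a TATA box and an interferon regulatory factor site, which is a pair of GAAA with 2 bases between them.
Pigr: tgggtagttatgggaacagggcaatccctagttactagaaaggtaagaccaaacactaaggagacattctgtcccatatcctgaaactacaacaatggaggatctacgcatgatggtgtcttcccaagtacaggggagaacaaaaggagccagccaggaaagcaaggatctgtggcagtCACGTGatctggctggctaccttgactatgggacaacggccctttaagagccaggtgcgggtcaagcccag
Olfm4: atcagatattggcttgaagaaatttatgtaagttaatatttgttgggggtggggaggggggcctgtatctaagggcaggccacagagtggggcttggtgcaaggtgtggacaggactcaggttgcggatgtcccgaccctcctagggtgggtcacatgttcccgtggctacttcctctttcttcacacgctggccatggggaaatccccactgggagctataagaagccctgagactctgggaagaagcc
Muc1: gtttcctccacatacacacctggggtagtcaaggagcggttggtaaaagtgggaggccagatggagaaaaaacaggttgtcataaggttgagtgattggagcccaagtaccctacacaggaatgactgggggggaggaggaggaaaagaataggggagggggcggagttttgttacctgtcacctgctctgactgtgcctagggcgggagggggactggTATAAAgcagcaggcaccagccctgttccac
Muc4: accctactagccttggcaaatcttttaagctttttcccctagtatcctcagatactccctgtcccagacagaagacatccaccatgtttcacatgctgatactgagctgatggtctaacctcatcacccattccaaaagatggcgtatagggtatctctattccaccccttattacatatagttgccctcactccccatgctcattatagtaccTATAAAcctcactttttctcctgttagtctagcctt
Pigr held the E-box CACGTG from 71 to 66 bases before the start, a pattern present in 6.02% of all 32851 promoters of this length. Muc1 held the TATA box TATAAA from 31 to 26 and Muc4 from 36 to 31 bases before the start, against 12.4% of all promoters. The STAT pattern was found in 7.02% and the interferon regulatory factor pattern in 2.98% of all promoters, and neither was in these windows of the 6 members. None of the patterns was in the windows of Olfm4, Fcgbp or Agr2, which says only that these letters are not there.

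Some members are neighbours in GRCm39, the build of the annotation used here. Muc5ac (chr7:141342709-141372968, plus strand) is followed after 19838 bases by Muc5b (chr7:141392807-141426821, plus strand) in the cluster of gel-forming mucins. Tff2 (chr17:31360023-31363262) and Tff1 (chr17:31380369-31384251) are neighbours on the minus strand, 17106 bases apart, beside Tff3. Muc4 (chr16:32555015-32602754, plus strand) overlaps the oppositely oriented Muc20 by 4962 bases, and strand was not stated for the counting, so reads there cannot be told apart. Muc20 itself had 1 to 21 counts per library. Fcgbp (chr7:27770661-27820287) lies 8603 bases from the related gene Fcgbpl1, and reads of similar sequence may have been split between them. The others are Muc1 (chr3:89136354-89140688), Agr2 (chr12:36042904-36054086), Olfm4 (chr14:80221521-80260579) and Pigr (chr1:130754397-130779986).

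Libraries held 29683200 to 32311700 assigned reads in the untreated experiment and 18128100 to 27056900 in the IFNγ experiment. Sin3b, the target of the guide, fell in Sin3Bsg1 cells from 86.0 ± 3.66 to 35.3 ± 1.71 CPM (counts per 1000000 reads, mean ± SD, n = 2) in the untreated experiment (edgeR adjusted p = 1.19e-11). Without IFNγ it fell from 92.4 ± 3.61 to 39.1 ± 0.41 CPM (n = 3, edgeR adjusted p = 5.1e-10), and with IFNγ from 82.9 ± 2.15 to 35.6 ± 2.04 CPM (n = 3, edgeR adjusted p = 5.22e-10). A single library stood furthest from its group. For sgCtrL +IFNγ replicate 1 the chi-square statistic of the counts averaged 22.3 and 18.6 over genes when set against replicates 2 and 3, which gave 4.05 with each other. Replicate 1 of Sin3Bsg1 +IFNγ stood apart by less, at 6.73 and 9.32 against replicates 2 and 3, which gave 3.46 with each other. In the remaining groups pairs of replicates gave 2.40 to 4.03. Values without sgCtrL +IFNγ replicate 1 are given where they change a call. Of 8 ductal and epithelial markers 7 were above 3 counts in every library, and Cldn4 had 0 to 4 counts. Of 8 immune markers only Cd68 was above 3 counts in every library, with a summed level of 9.57 to 14.6 TPM (transcripts per 1000000, which corrects for gene length) over all libraries and Cd3e, Adgre1 and Nkg7 at 0. Of 10 acinar markers 3 were above 3 counts in every library, the sum was 7.3 to 22.7 TPM, and Ptf1a, Cpa1 and Cela2a were at 0. Ductal markers summed to 5500 to 5520 TPM in untreated sgCtrL and 7270 to 7370 TPM in untreated Sin3Bsg1 cells, and to 3890 to 3970 and 4210 to 4310 TPM without IFNγ. With IFNγ the sums were 3900 to 4630 TPM in sgCtrL and 5160 to 5350 TPM in Sin3Bsg1 cells. Of 8 fibroblast markers 3 to 6 were above 3 counts in every library, mostly Pdgfra and Pdgfrb, and their sums were 32.3 to 32.4 TPM in untreated sgCtrL against 10.3 to 11.6 TPM in untreated Sin3Bsg1 cells. The fibroblast sums were 86.1 to 89.9 TPM in sgCtrL and 75.3 to 80.1 TPM in Sin3Bsg1 cells without IFNγ, and 63.3 to 64.4 and 54.6 to 60.6 TPM with it. The part of these shifts in the results below was not tested. In such bulk libraries, fewer expressing cells and less RNA per cell cannot be told apart.

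Muc1 had the highest level per length in most groups, and Olfm4 stood above the other members only in the IFNγ experiment. Muc1, a membrane mucin with a signalling tail, reached 39.0 to 87.8 TPM as group means and ranked first in 5 of the 6 groups. Olfm4, a secreted olfactomedin of intestinal crypts and glands, ranged from 0.51 TPM in untreated sgCtrL, below Muc5b, Muc5ac, Fcgbp and Agr2, to 111 TPM in Sin3Bsg1 cells without IFNγ, the only group in which it ranked first. Muc5b reached 1.25 to 12.3 TPM, Agr2 0.93 to 6.58 TPM, Fcgbp 0.27 to 5.72 TPM, Muc4 0.23 to 2.29 TPM and Muc5ac 0.14 to 2.32 TPM. In Sin3Bsg1 cells without IFNγ, Muc5b at 6.06 ± 0.24 TPM and Fcgbp at 5.72 ± 0.47 TPM (SD, n = 3) lay within their spread of each other, as did Muc4 at 2.29 ± 0.47 TPM and Agr2 at 2.19 ± 0.93 TPM in Sin3Bsg1 cells with IFNγ. Tff1, a stomach pit trefoil factor, had 0 to 2 counts in every library and was not measurable at this depth.

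**Figure D1:**
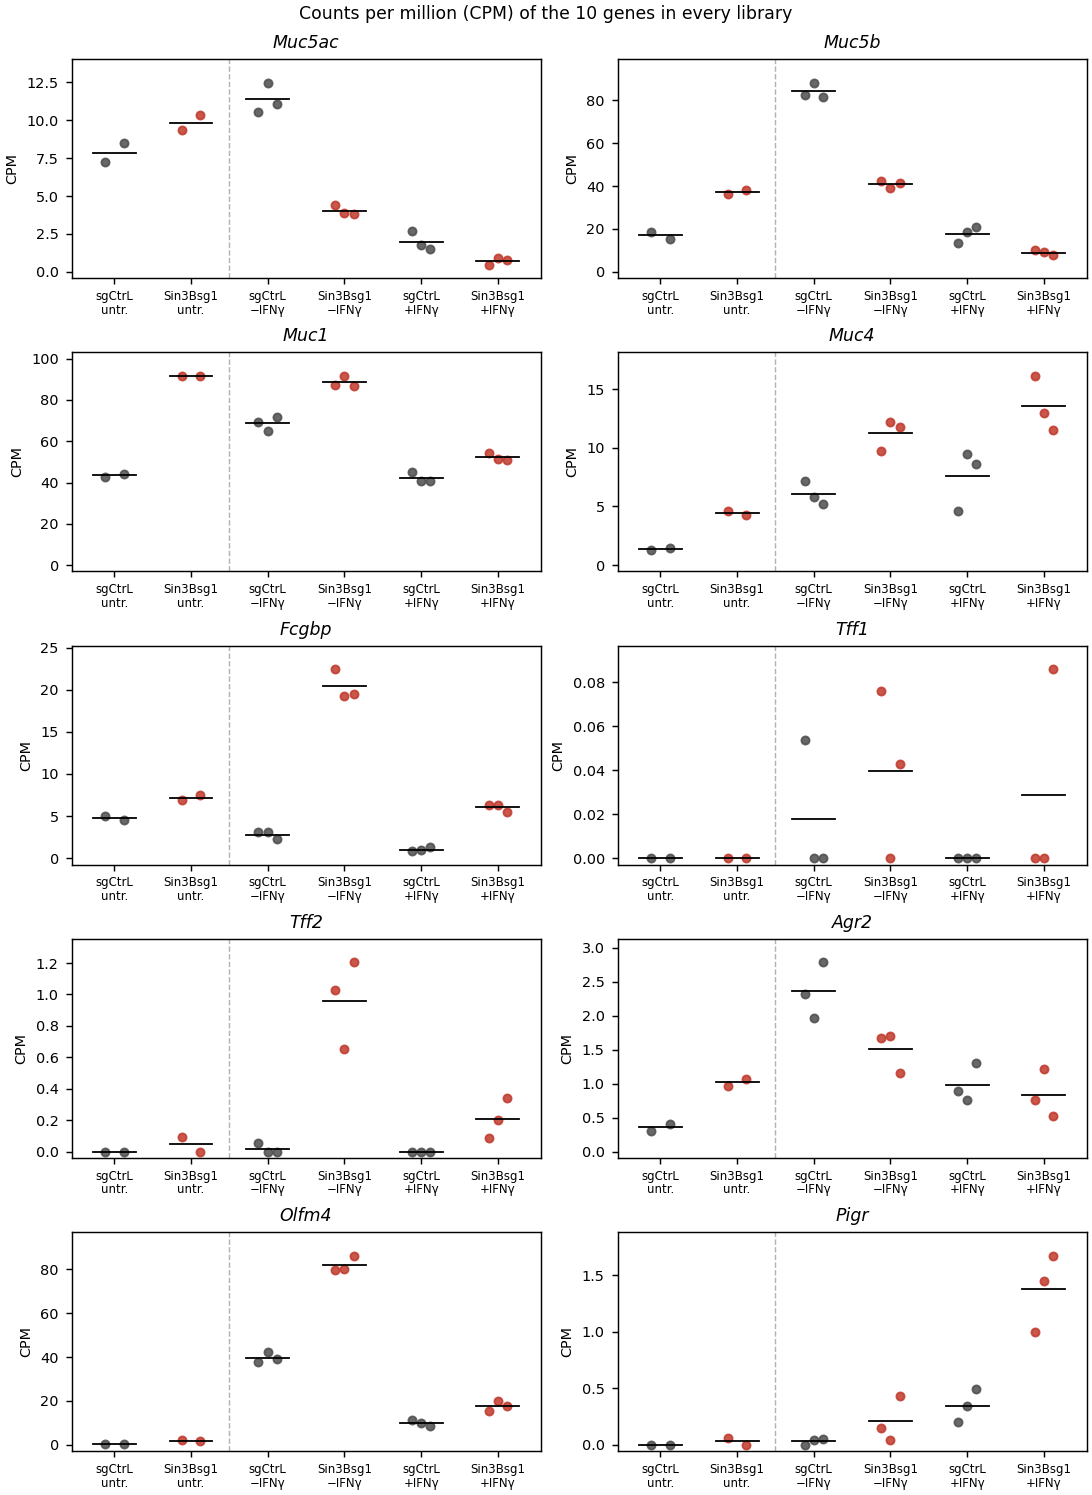
Level in CPM (linear axis from 0, a different range for each gene) of the 10 members in each of the 16 libraries, grey for sgCtrL and red for Sin3Bsg1, with a black line at each group mean and a dashed line between the 2 experiments (untr., untreated). Muc5b is higher with Sin3Bsg1 on the left of the dashed line and lower on its right, and Tff1 never exceeds 0.09 CPM.

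The genotype comparison asks what the loss of Sin3B does to these genes in tumour cells outside the animal. In the untreated experiment the members were higher in Sin3Bsg1 than in sgCtrL cells wherever they could be tested. Of 7 members that passed the filter on low counts 6 were called higher (edgeR quasi-likelihood, Benjamini-Hochberg adjusted p under 0.05 over 14589 genes) and 0 lower, and the groups did not overlap for any of the 7. Agr2 is among the 6 but passed the filter only with its Sin3Bsg1 libraries, where it is high, so its call is no test result. Over all genes tested 15.1% were called higher and 16% lower. The share of all genes whose groups did not overlap is not given here. The median log2 fold change was 1.14 over the 7 members and 0.00 over all genes. These counts describe how the members were picked and are not evidence about them.

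In untreated cells the membrane mucins rose together with Olfm4. Muc1 stood at 42.9 and 44.1 CPM in sgCtrL and at 91.5 and 91.6 CPM in Sin3Bsg1 cells. The replicates were almost identical and the groups lay 2.10-fold apart, a log2 fold change of 1.07 ± 0.04 (SE). Muc4, a large membrane mucin that partners with the receptor ErbB2, had 1.24 and 1.5 CPM in sgCtrL against 4.58 and 4.31 CPM in Sin3Bsg1 cells, 3.24-fold higher (log2 1.69 ± 0.22). Olfm4 had 11 to 13 counts in sgCtrL and 58 to 63 in Sin3Bsg1 libraries, or 0.44 and 0.37 against 1.96 and 1.88 CPM, which is 4.70-fold higher (log2 2.23 ± 0.36). Although the fold for Olfm4 was the highest among the members here, both groups were low.

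The gel-forming mucins and their partners were also higher with the guide in untreated cells. Muc5b, the mucin of airway glands, had 18.4 and 15.6 CPM in sgCtrL and 36.5 and 38.2 CPM in Sin3Bsg1 cells, 2.20-fold higher (log2 1.14 ± 0.08). Muc5ac, the mucin of gastric pit cells, had 7.22 and 8.51 CPM against 9.34 and 10.3 CPM, a difference of 1.25-fold (log2 0.32 ± 0.12) that was not called. It was called without sgCtrL replicate 2 (log2 0.45) or without Sin3Bsg1 replicate 1 (log2 0.40). All Sin3Bsg1 libraries lay above all sgCtrL libraries for both. Fcgbp, which encodes a large mucus protein that binds gel-forming mucins, had 5.01 and 4.53 CPM against 6.94 and 7.45 CPM, 1.51-fold higher (log2 0.59 ± 0.14). Agr2, a disulfide isomerase needed to fold mucins in the endoplasmic reticulum, had 9 and 12 counts in sgCtrL and 31 and 33 in Sin3Bsg1 libraries, 2.84-fold higher (log2 1.51 ± 0.44). The call on Agr2 is no test result, as given above. It was lost with DESeq2 (log2 1.52) and when any 1 of the 4 libraries was left out (log2 1.31 to 1.74). Tff2 and Pigr had at most 3 counts in any untreated library, so that no fold is given.

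In the IFNγ experiment, without IFNγ, the members split into 2 directions. Of 9 tested members 5 were called higher in Sin3Bsg1 cells (Muc1, Muc4, Fcgbp, Tff2 and Olfm4) and 2 lower (Muc5ac and Muc5b), whereas 7.89% of 14913 genes were called higher and 9.33% lower. Tff2 and Pigr passed the filter on low counts only through Sin3Bsg1 libraries, where they are high, so their calls are no test result in this experiment. Without them 4 of 7 were called higher and 2 lower. The median was 0.89 over the members and -0.01 over all genes. The groups overlapped for Pigr alone among the 9, and the share of all genes whose groups overlapped is not given here.

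Muc5ac and Muc5b, the adjacent gel-forming mucin genes, were lower with the guide in this experiment. Muc5b had 82.7, 88.3 and 81.6 CPM in sgCtrL and 42.2, 39.0 and 41.3 CPM in Sin3Bsg1 cells. This is 2.06-fold lower (log2 -1.04 ± 0.10), with a wide gap between the groups. Muc5ac had 10.6, 12.5 and 11.1 CPM in sgCtrL and 4.42, 3.87 and 3.78 CPM in Sin3Bsg1 cells, 2.82-fold lower (log2 -1.5 ± 0.18). Agr2, with 2.32, 1.96 and 2.78 CPM against 1.68, 1.70 and 1.16 CPM, also lay lower in each Sin3Bsg1 library, but its difference (log2 -0.63 ± 0.31) was not called.

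Fcgbp and Tff2 stood out in the other direction. Fcgbp had 3.07, 3.09 and 2.30 CPM in sgCtrL and 22.4, 19.3 and 19.5 CPM in Sin3Bsg1 cells, 7.19-fold higher (log2 2.85 ± 0.14). Tff2, the trefoil factor of gastric neck cells, had 1, 0 and 0 counts in sgCtrL and 27, 15 and 28 counts in Sin3Bsg1 libraries. The ratio of the summed counts, scaled to library size, was 59.1 with a 95% exact counting interval of 10.3 to 2370, which covers counting error only. Tff2 thus was seen almost only with the guide, and still at a low level of 3.66 ± 1.08 TPM (SD, n = 3).

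The membrane mucins and Olfm4 were higher with the guide here too. Muc1 had 69.3, 65.0 and 71.6 CPM in sgCtrL and 87.4, 91.6 and 86.9 CPM in Sin3Bsg1 cells, 1.29-fold higher (log2 0.37 ± 0.05). Muc4 had 7.17, 5.84 and 5.19 CPM against 9.75, 12.2 and 11.8 CPM, 1.85-fold higher (log2 0.89 ± 0.21). Olfm4 had 37.8, 42.3 and 39.1 CPM against 79.9, 80.1 and 86.2 CPM, 2.06-fold higher (log2 1.04 ± 0.08). No library crossed between the groups for these 3 genes.

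With IFNγ in both groups, 6 of 9 members were called higher in Sin3Bsg1 cells and 2 lower, against 8.62% and 7.9% of all genes tested. Without Tff2 and Pigr 4 of 7 were called higher and 2 lower. The median was 0.83 over the members and 0.00 over all genes. Muc5ac had 2.69, 1.78 and 1.53 CPM in sgCtrL and 0.46, 0.89 and 0.77 CPM in Sin3Bsg1 cells (log2 -1.48 ± 0.26). Muc5b had 13.5, 18.5 and 21.0 CPM against 10.0, 9.04 and 7.77 CPM (log2 -0.99 ± 0.13). The 2 gel-forming mucins therefore stayed lower with the guide, and Fcgbp stayed higher at 6.35, 6.38 and 5.50 CPM against 0.85, 0.94 and 1.31 CPM, 5.86-fold (log2 2.55 ± 0.17). Muc1 (log2 0.32 ± 0.06), Muc4 (log2 0.83 ± 0.20) and Olfm4 (log2 0.84 ± 0.10) were also higher, the call on Muc4 being lost without Sin3Bsg1 +IFNγ replicate 1 (log2 0.68), and Agr2 groups overlapped (log2 -0.24 ± 0.35). Tff2 had 2, 5 and 8 counts in Sin3Bsg1 and 0 in each sgCtrL library, at least 4.78-fold higher with the sgCtrL group set to 3 counts. Pigr is described with the IFNγ comparison. The genotype comparisons with and without IFNγ share no library, but the 12 libraries share 1 fit, and each library also enters an IFNγ comparison.

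**Figure D2:**
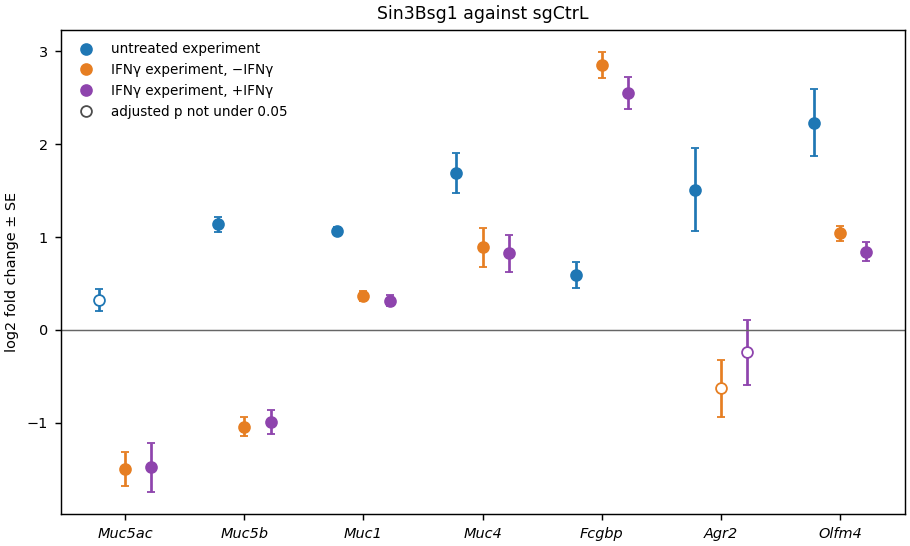
Log2 fold change of Sin3Bsg1 against sgCtrL (y axis, ± SE) for the 7 members tested in both experiments, blue for the untreated experiment and orange and purple for the IFNγ experiment without and with IFNγ. Filled points were called at an adjusted p under 0.05 and open points were not. The filled blue point of Agr2 is no test result, as given in the text. Muc5b and Muc5ac lie above 0 in blue and below 0 in orange and purple, and Muc1, Muc4, Fcgbp and Olfm4 lie above 0 in each.

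Set side by side, the 2 genotype contrasts without IFNγ share no library. Of the 6 members called higher in the untreated experiment 4 were called higher in the second as well (66.7%), which were all 4 of those tested in both and called higher in the second, while Muc5b (16.7%) was called lower. The 6 include Agr2, whose call in the untreated experiment is no test result. Over all 13848 genes tested in both, 28.5% of the 2155 called higher in the untreated experiment were called higher in the second, 54.2% of the 1133 called higher in the second had been higher in the first, and 3.43% of the 2155 were called lower in the second. These tables were counted and normalised separately, and no test of the difference between experiments was made.

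The control cells themselves differed between the experiments. Olfm4 stood at 0.51 ± 0.06 TPM (SD, n = 2) in untreated sgCtrL and 53.1 ± 2.55 TPM (SD, n = 3) in sgCtrL without IFNγ, a ratio of 105. Ratios were 7.07 for Agr2, 5.29 for Muc5b, 4.73 for Muc4, 1.68 for Muc1, 1.54 for Muc5ac and 0.63 for Fcgbp. The Sin3Bsg1 cells differed as well, in a different way for each gene. For Muc5b the Sin3Bsg1 means were 5.12 and 6.06 TPM, whereas the sgCtrL means were 2.33 and 12.3 TPM. For Muc5ac the Sin3Bsg1 means were 1.88 and 0.83 TPM and the sgCtrL means 1.5 and 2.32 TPM. Olfm4 stood at 2.40 TPM in untreated Sin3Bsg1 cells and at 111 TPM in those of the second experiment without IFNγ. Culture, library and counting of the 2 experiments cannot be told apart here.

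The IFNγ comparison asks how the cytokine of activated T cells changes these genes in each genotype. IFNγ went with lower levels of most members in both. In sgCtrL cells 6 of 9 tested members were called lower (Muc5ac, Muc5b, Muc1, Fcgbp, Agr2 and Olfm4) and 1 higher (Pigr), where 14.5% of all genes were called lower and 15.7% higher. In Sin3Bsg1 cells 6 of 9 were called lower (Muc5ac, Muc5b, Muc1, Fcgbp, Tff2 and Olfm4) and 1 higher (Pigr), where 12.3% of all genes were called lower and 16.1% higher. Tff2 and Pigr passed the filter on low counts only through Sin3Bsg1 libraries, where they are high, so their calls are no test result. Without them the lower calls were on Muc5ac, Muc5b, Muc1, Fcgbp and Olfm4 in both genotypes and on Agr2 in sgCtrL. No member other than Pigr was called higher. With Tff2 and Pigr kept in, the medians were -1.45 in sgCtrL, or -1.25 with Tff2 set to its bound, and -1.75 in Sin3Bsg1 cells, against 0.00 and 0.01 over all genes.

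The gel-forming mucins and Olfm4 were lower with IFNγ by 4.03-fold or more in each genotype. From the CPM given above, Muc5ac was 5.74-fold lower with IFNγ in sgCtrL (log2 -2.52 ± 0.20) and 5.66-fold lower in Sin3Bsg1 cells (log2 -2.50 ± 0.24). Muc5b was 4.75-fold lower (log2 -2.25 ± 0.11) and 4.56-fold lower (log2 -2.19 ± 0.12). For both genes the lowest level of all 6 groups was in Sin3Bsg1 cells with IFNγ. Olfm4 had 11.2, 9.75 and 8.74 CPM in sgCtrL with IFNγ, 4.03-fold lower than without (log2 -2.01 ± 0.10), and 15.5, 19.8 and 17.9 CPM in Sin3Bsg1 cells with IFNγ, 4.63-fold lower (log2 -2.21 ± 0.09). No treated library reached any library without IFNγ for these 3 genes in the same genotype.

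Fcgbp and Muc1 were lower by less. Fcgbp was 2.74-fold lower in sgCtrL (log2 -1.45 ± 0.20) and 3.36-fold lower in Sin3Bsg1 cells (log2 -1.75 ± 0.13). Its level in Sin3Bsg1 cells with IFNγ still lay above that of sgCtrL cells without it. Muc1 had 45.0, 40.7 and 40.6 CPM in sgCtrL with IFNγ (log2 -0.71 ± 0.06) and 54.5, 51.5 and 51.1 CPM in Sin3Bsg1 cells with IFNγ (log2 -0.76 ± 0.05). Agr2 had 0.89, 0.76 and 1.31 CPM in sgCtrL with IFNγ, 2.38-fold lower (log2 -1.25 ± 0.32). In Sin3Bsg1 cells it had 0.75, 1.21 and 0.52 CPM, overlapped the libraries without IFNγ and was not called (log2 -0.86 ± 0.33). Tff2 had 1 count in all in sgCtrL without IFNγ and 0 with it, which gives no fold, and went from 70 to 15 summed counts in Sin3Bsg1 libraries (log2 -2.18 ± 0.54).

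Pigr and Muc4 did not follow the other members. Pigr, the receptor that carries polymeric immunoglobulin across epithelia and a known interferon-responsive gene, had 0, 1 and 1 counts in sgCtrL without IFNγ and 4, 9 and 11 with it. The ratio of summed counts was 10.7 with a 95% exact counting interval of 2.65 to 93.2. In Sin3Bsg1 libraries Pigr had 4, 1 and 10 counts without IFNγ and 24, 36 and 39 with it, 6.49-fold higher (log2 2.70 ± 0.54), and with IFNγ it was 3.92-fold higher in Sin3Bsg1 than in sgCtrL cells (log2 1.97 ± 0.50). All of its levels were low, at most 0.88 TPM in any library. Its call lost the threshold in sgCtrL without −IFNγ replicate 1 (log2 2.75) and between the genotypes with IFNγ without Sin3Bsg1 +IFNγ replicate 3 (log2 1.81). Muc4 had 4.62, 9.48 and 8.61 CPM in sgCtrL with IFNγ, which straddle the libraries without it (log2 0.34 ± 0.22), and 16.1, 13.0 and 11.6 CPM in Sin3Bsg1 cells, which also overlap (log2 0.27 ± 0.19). The low value is sgCtrL +IFNγ replicate 1, the library that stood furthest from its group. Without it Muc4 was called higher with IFNγ in sgCtrL cells (log2 0.57).

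**Figure D3:**
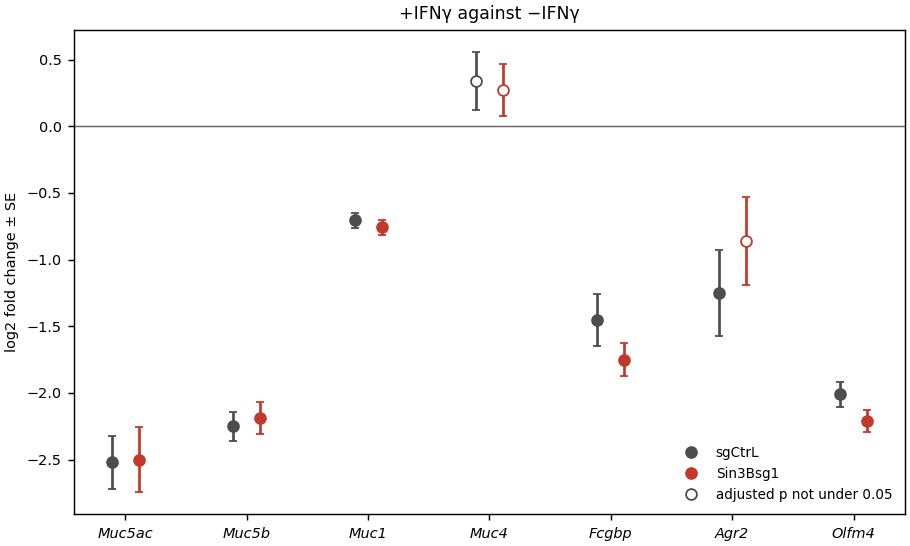
Log2 fold change with IFNγ (y axis, ± SE) in sgCtrL (grey) and Sin3Bsg1 cells (red) for 7 members, filled where called at an adjusted p under 0.05 and open where not. Points of the 2 genotypes lie close for each gene, with 5 genes below 0 and filled in both, Agr2 below 0 and filled in sgCtrL alone, and Muc4 open in both.

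Whether IFNγ acted differently in the 2 genotypes was fitted as an interaction. None of the 9 tested members was called by edgeR (0 at an unadjusted p under 0.05) or by DESeq2 (0), while 0.0805% of all genes were called higher and 0.0335% lower. The interaction was 0.02 (log2) for Muc5ac, 0.06 for Muc5b, -0.05 for Muc1, -0.07 for Muc4, -0.30 for Fcgbp, -0.20 for Olfm4, 0.39 for Agr2 and -0.51 for Pigr. With 3 libraries per group this does not show that the responses were equal.

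Genes with the most similar pattern to each member were sought over the 16 libraries among 12071 genes, by Pearson r of log2(CPM + 0.5) centred within each experiment. The libraries share guides, treatment and batches, so r is a description. Muc5ac and Muc5b had r of 0.94 with each other, and Muc1 and Olfm4 had 0.94. Muc4 went with neither gel-forming mucin, at r of -0.49 with Muc5ac and -0.23 with Muc5b. Among the closest genes were Slc40a1, Krt79 and Sorcs2 for Muc5ac (r 0.97 to 0.96), Slco4a1, Fer1l6 and Iqgap2 for Muc5b (0.99 to 0.98), and Scara5, Slc12a2 and Abcb1a for Muc1 (0.99 to 0.99). For Muc4 they were Ptpre, Atf5 and Ptprb (0.94 to 0.93), for Fcgbp Sh3bgrl2 and Cotl1 (0.97 each), and for Olfm4 Col11a2, Tnxb and Fmnl1 (0.98 to 0.98).

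Other genes of mucus secretion were followed through 5 lists with 132 of 134 genes in the tables, of which 71 were tested in the untreated and 73 in the IFNγ experiment. These lists too were chosen with earlier results of these data known, so their counts and adjusted p-values describe these libraries and are not independent evidence. In untreated cells 40 (56.3%) rose and 8 (11.3%) fell with the guide, where 15.1% and 16% of all genes did. In the IFNγ experiment 24 (32.9%) rose and 14 (19.2%) fell without IFNγ, against 7.89% and 9.33% of all genes, and 20 (27.4%) rose and 10 (13.7%) fell with it, against 8.62% and 7.9%. With IFNγ 14 (19.2%) rose in each genotype, near the 15.7% and 16.1% of all genes, and 32 (43.8%) fell, against 14.5% in sgCtrL and 12.3% in Sin3Bsg1 cells. The shares of all genes apply to each list below. Medians over the lists were 0.33, 0.14 and 0.12 for the guide and -0.17 and -0.16 for IFNγ, where all genes gave between -0.01 and 0.01. Between the 2 experiments 19 list genes were called higher with the guide in both, which is 47.5% of those higher in the first and 79.2% of those higher in the second, against 28.5% and 54.2% over all genes. A further 6 were called lower in both, 2 (Fut8 and Gfi1) higher in the first and lower in the second, and 2 (Galnt18 and St3gal4) lower in the first and higher in the second, named here after their values were seen.

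Among other mucins Muc13, a membrane mucin of the gut, was the only one of 6 tested in the untreated and 7 in the IFNγ experiment that rose with the guide. This is 16.7% and 14.3% of the list, and 15.1% of all genes rose in untreated cells. It had 38.7 ± 2.0 CPM in untreated sgCtrL and 122 ± 1.13 CPM in Sin3Bsg1 cells (log2 1.66 ± 0.04, edgeR adjusted p = 9.86e-14), and in the IFNγ experiment 80.5 ± 3.98 against 175 ± 0.95 CPM without IFNγ (log2 1.12 ± 0.05, edgeR adjusted p = 5.1e-10). It fell with IFNγ in both genotypes (log2 -1.07 ± 0.05 in sgCtrL and -0.89 ± 0.05 in Sin3Bsg1 cells, edgeR adjusted p = 1.2e-10 and 4.97e-10). Muc13 thus had the directions of Muc1 in each comparison. Mucl3 rose with IFNγ in sgCtrL cells (log2 0.62 ± 0.20, edgeR adjusted p = 0.0288), a call lost when any of 4 single libraries was left out (log2 0.52 to 0.60). The call was also lost with a minimum of 1 count and when only the 6 libraries of the comparison were fitted (log2 0.61 in each). None of Muc15, Muc16, Mucl1 and Mucl2 had a count in any library, and Muc2, the intestinal gel-forming mucin, had at most 19.

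The list of other goblet, pit and gland genes had 10 of 14 tested (71.4%) higher and 1 (7.14%) lower with the guide in untreated cells, where 15.1% and 16% of all genes were. Of 15 tested in the IFNγ experiment 8 (53.3%) were higher and 1 (6.67%) lower without IFNγ, and 5 (33.3%) higher and 0 lower with it, against 7.89% and 8.62% of all genes higher. Slc26a9, a gastric and airway chloride transporter, rose from 2.96 ± 0.05 to 13.6 ± 0.38 CPM in untreated cells (log2 2.20 ± 0.13, edgeR adjusted p = 1.62e-09) and from 9.87 ± 0.90 to 13.6 ± 0.31 CPM without IFNγ (log2 0.47, edgeR adjusted p = 0.00375). Clca1, a goblet cell protease of mucus, rose with the guide in all 3 comparisons by 0.82 to 0.96 on the log2 scale, and Tmprss2, a membrane serine protease, by 0.74 to 1.07. Vsig1, a junction protein of gastric epithelium, rose by 0.68 to 0.94. Tff3, the third trefoil factor, rose with the guide without IFNγ (log2 1.78 ± 0.36, edgeR adjusted p = 0.00267) from 0.67 ± 0.07 to 2.32 ± 0.34 CPM (n = 3). With IFNγ its difference between the guides was not called (log2 1.16 ± 0.44, edgeR adjusted p = 0.0879). With IFNγ 8 genes of the list (53.3%) fell in each genotype, while 3 (20%) rose in sgCtrL and 2 (13.3%) in Sin3Bsg1 cells, near the share of all genes. Spink4, a goblet cell peptide, fell with IFNγ from 3.79 ± 0.42 to 0.59 ± 0.24 CPM in sgCtrL (log2 -2.64 ± 0.39, edgeR adjusted p = 8.79e-05) and from 4.92 ± 1.05 to 0.59 ± 0.51 CPM in Sin3Bsg1 cells (log2 -3.04 ± 0.38, edgeR adjusted p = 1.5e-05). Sytl2, which tethers secretory granules, fell in both genotypes (log2 -0.61 ± 0.12 in sgCtrL and -0.565 ± 0.12 in Sin3Bsg1 cells).

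Regulators of secretory and foregut lineages had 12 of 17 (70.6%) higher and 0 lower with the guide in untreated cells, against 15.1% and 16% of all genes. Of 16 tested in the IFNγ experiment 7 (43.8%) were higher and 1 (6.25%) lower without IFNγ, and 7 (43.8%) higher and 0 lower with it, against 7.89% and 8.62% of all genes higher. Hnf4a, a nuclear receptor of gut and liver epithelium, rose from 127 ± 2.26 to 231 ± 1.12 CPM in untreated cells (log2 0.86, edgeR adjusted p = 1.57e-12) and from 50.1 ± 1.04 to 97.5 ± 1.89 CPM without IFNγ (log2 0.96 ± 0.06, edgeR adjusted p = 1.36e-08). Gata4, a foregut factor, rose without IFNγ from 5.60 ± 0.39 to 14.2 ± 1.14 CPM (log2 1.35 ± 0.10, edgeR adjusted p = 2.33e-07), and in untreated cells its difference of 0.34 was not called (edgeR adjusted p = 0.0927). Klf5 and Elf3, epithelial factors, rose in all 3 genotype comparisons, by 0.34 to 0.74 and by 0.47 to 0.99. Creb3l1, a factor of the secretory apparatus, rose with the guide in untreated cells (log2 1.64 ± 0.35, edgeR adjusted p = 0.00192) and fell with IFNγ in sgCtrL (log2 -2.03 ± 0.30) and Sin3Bsg1 cells (log2 -1.67 ± 0.27, edgeR adjusted p = 7.34e-05 and 0.000218). Its difference between the guides was not called in the IFNγ experiment (log2 0.18 without and 0.54 with IFNγ). With IFNγ 7 of 16 (43.8%) fell and 3 (18.8%) rose in each genotype, the latter near the share of all genes. Those that fell included Foxa1, a factor of endoderm, in both (log2 -0.73 ± 0.21 and -0.63 ± 0.21, lost when single libraries were left out, log2 -0.49 to -0.66). Ern1, a sensor of the unfolded protein response, also fell in both (log2 -0.71 ± 0.09 in sgCtrL and -0.67 ± 0.09 in Sin3Bsg1 cells). Ehf, an Ets factor of epithelia named after its values were seen, was the only list gene called for the interaction (log2 -0.39 ± 0.06, edgeR adjusted p = 0.0308). It had 66.6 ± 1.82 and 83.8 ± 1.67 CPM in sgCtrL without and with IFNγ, and 97.2 ± 1.52 and 93.4 ± 2.88 CPM in Sin3Bsg1 cells. The call was lost when any of 9 single libraries was left out (log2 -0.37 to -0.42).

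Enzymes that build and cap O-linked sugars had no common direction. With the guide 12 of 25 (48%) rose and 6 (24%) fell in untreated cells, against 15.1% and 16% of all genes. In the IFNγ experiment 4 (16%) rose and 10 (40%) fell without IFNγ, against 7.89% and 9.33% of all genes, and 4 (16%) rose and 9 (36%) fell with it, against 8.62% and 7.9%. B4galnt2, which makes a blood group-like cap, rose in untreated cells (log2 2.22 ± 0.37, edgeR adjusted p = 0.000197), as did Gcnt3, the branching enzyme of mucin-producing tissue (log2 1.68 ± 0.31, edgeR adjusted p = 0.000471). Both were low, at 0.42 and 0.86 CPM in untreated sgCtrL cells. Without IFNγ, sgCtrL and Sin3Bsg1 cells had 0.46 and 0.81 CPM of B4galnt2 and 0.43 and 0.37 CPM of Gcnt3. Galnt4, which starts such chains, rose in all 3 genotype comparisons by 0.49 to 0.68. St6galnac2, a sialyltransferase whose symbol has 2 rows in the tables, fell in all 3 by 0.68 to 1.30 in the row with more counts. Fut4, a fucosyltransferase, fell in the IFNγ experiment (log2 -0.998 ± 0.24 without and -0.78 ± 0.23 with IFNγ, edgeR adjusted p = 0.00944 and 0.026). The calls on Fut4 were lost without 1 and without any of 3 single libraries (log2 -0.78 and -0.58 to -0.75). With IFNγ 5 (20%) rose in sgCtrL and 6 (24%) in Sin3Bsg1 cells, against 15.7% and 16.1% of all genes, and 10 (40%) fell in each, against 14.5% and 12.3%. Gcnt1, the core branching enzyme of most tissues, rose from 29.9 ± 1.75 to 66.5 ± 6.35 CPM in sgCtrL (log2 1.15 ± 0.07, edgeR adjusted p = 2.38e-09) and from 25.7 ± 0.30 to 74.1 ± 3.06 CPM in Sin3Bsg1 cells (log2 1.53 ± 0.07, edgeR adjusted p = 5.24e-11). St6galnac4 rose with IFNγ (log2 0.97 ± 0.08 in Sin3Bsg1 cells), and Fut2, the secretor fucosyltransferase, fell in both genotypes (log2 -0.94 ± 0.12 and -0.996 ± 0.12), as did St6gal1 (log2 -0.94 ± 0.07 in sgCtrL).

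Genes of mucosal defence, most of them secreted proteins, had 5 of 9 (55.6%) higher and 1 (11.1%) lower with the guide in untreated cells, against 15.1% and 16% of all genes. Of 10 tested in the IFNγ experiment 4 (40%) were higher and 2 (20%) lower without IFNγ, against 7.89% and 9.33%, and 3 (30%) higher and 1 (10%) lower with it, against 8.62% and 7.9%. Lgals4, a galectin of gut epithelium, stood per length at 517 and 1030 TPM in untreated sgCtrL and Sin3Bsg1 cells (log2 0.99 ± 0.02, edgeR adjusted p = 1.13e-14) and 372 and 750 TPM without IFNγ (log2 0.99 ± 0.05, edgeR adjusted p = 4.19e-09). Dmbt1, a scavenger protein of mucosal fluids, rose with the guide from 527 ± 6.98 to 1150 ± 10.1 CPM in untreated cells (log2 1.12 ± 0.02, edgeR adjusted p = 7.1e-16) and from 620 ± 13.1 to 839 ± 12.7 CPM without IFNγ (log2 0.44 ± 0.05). Defb1, a beta-defensin, fell without IFNγ (log2 -0.80 ± 0.16, edgeR adjusted p = 0.00225) and with it (log2 -0.90 ± 0.17), and Slpi, a protease inhibitor, fell in untreated cells (log2 -0.59 ± 0.14, edgeR adjusted p = 0.0032). With IFNγ 5 of 10 (50%) fell and 2 (20%) rose in each genotype, the latter near the share of all genes. Dmbt1 fell (log2 -1.08 ± 0.05 in sgCtrL and -1.12 ± 0.05 in Sin3Bsg1 cells), as did Ceacam1, an adhesion protein of epithelium (log2 -0.59 ± 0.04 and -0.69 ± 0.04), whereas Il17rc, a receptor subunit for interleukin 17, rose (log2 0.79 ± 0.09 and 0.79 ± 0.08).

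**Figure D4:**
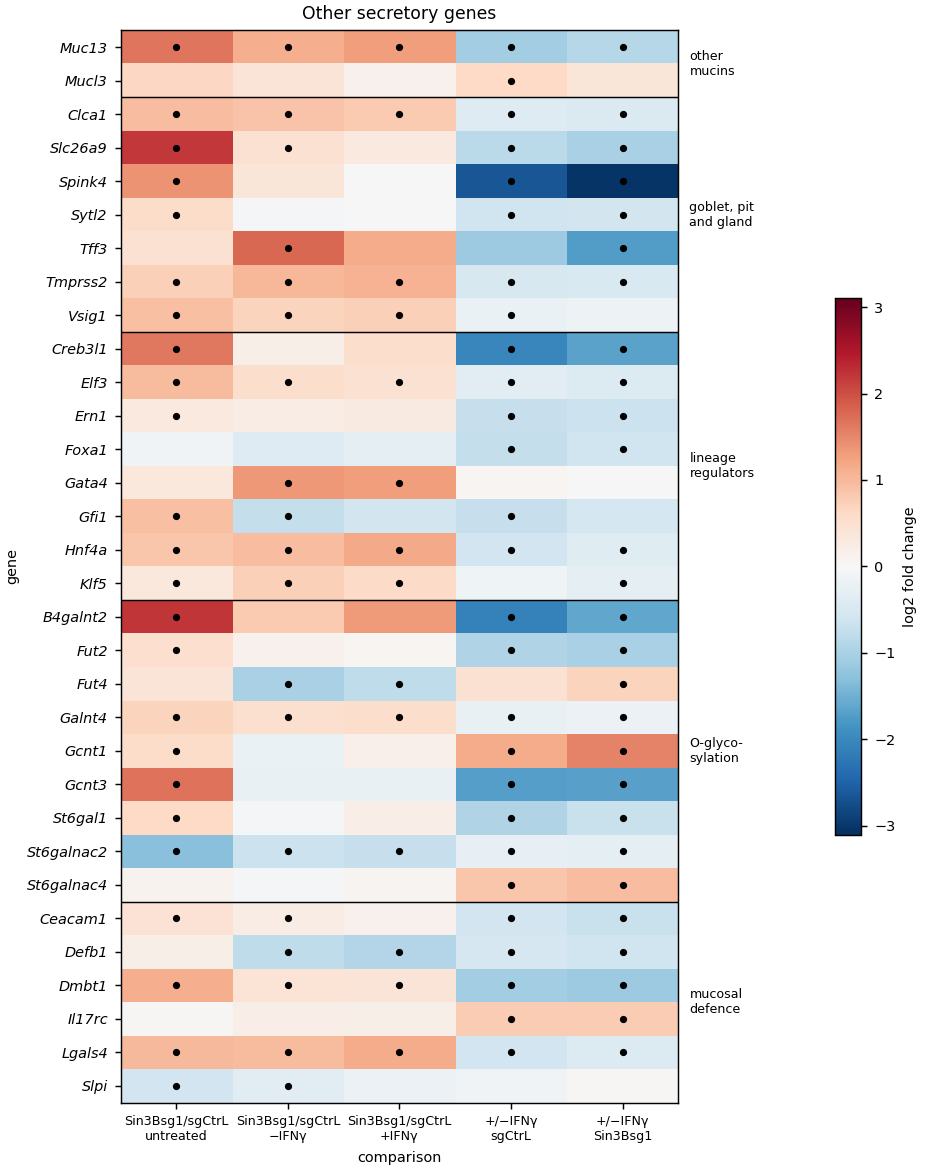
Log2 fold change (colour, red higher and blue lower) of the list genes named by rule, in rows grouped by list, over the 3 genotype and 2 IFNγ comparisons in columns, with a black dot where the edgeR adjusted p was under 0.05. Muc13, Clca1, Tmprss2, Elf3, Hnf4a, Galnt4, Dmbt1 and Lgals4 are red with a dot in the 3 genotype columns and blue with a dot in the 2 IFNγ columns, and Gcnt1 and Il17rc are red in the IFNγ columns.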

How the data were processed

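RNA-seq of KPC1199 cells gave 16 libraries in 2 tables. Per-gene estimated counts, not all whole numbers, were deposited by the authors together with gene names and lengths, and were rounded here. The sources differ on how they were made: the submitters' processing notes name fastp, HISAT2, StringTie, DESeq2 and mm39, and the study's methods name HISAT2, featureCounts, DESeq2 and mm9. Assembled loci without a gene name (324, 0.615 to 0.677% of reads) occur only in the untreated table and were left out. Columns named lacZ were taken as sgCtrL, the only other guide, and columns of group means were not used. The table of the untreated experiment and that of the IFNγ experiment were scaled and fitted separately.

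Counts were scaled by TMM, filtered with filterByExpr and tested with edgeR 4.0.16 (R 4.3.3) by quasi-likelihood F test, with all libraries of a table in 1 fit and Benjamini-Hochberg adjustment over all genes (0.05). CPM use TMM library sizes, TPM the deposited lengths. SE is the log2 fold change over the root of F. DESeq2 1.42.0, other scaling and filters, the replicate block and leaving out each library were alternatives. The test was checked on simulated data. The members and lists were chosen with earlier results of these data known. Named are all members, Sin3b, up to 3 genes per list and comparison (largest change among those called, mean of at least 1 CPM, no overlap between groups) and the 3 genes most similar to each member with at least 1 CPM. Positions are from GENCODE M39 and promoters from RefSeq. A few items that these rules name are not reported here.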

Additional observations from a re-analysis of the deposited data

Results flagged for a closer look

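Some genes had all Sin3Bsg1 libraries above all sgCtrL libraries in the untreated experiment and all below them without IFNγ in the second experiment. The difference between the experiments was not tested. The log2 fold changes in the first and the second were 0.32 and -1.5 for Muc5ac, 1.14 and -1.04 for Muc5b, and 1.51 and -0.63 for Agr2. Among the list genes named by the rule they were 0.18 and -0.80 for Defb1, 0.40 and -0.998 for Fut4, 0.58 and -0.22 for Gcnt1, and 0.92 and -0.75 for Gfi1, a repressor that acts in secretory progenitors. Other list genes, not named by the rule, also changed sides (Bcas1, Fut8, Galnt1, Gcnt2 and Gcnt4). How many of all genes changed sides in this way is not given here. The effects not called by edgeR among these were Muc5ac, Defb1 and Fut4 in the first and Agr2 and Gcnt1 in the second. Both calls on Gfi1 were lost when single libraries were left out (log2 0.66 to 0.99 and -0.67 to -0.70). The call in the first experiment was also lost with DESeq2 (log2 0.93). Ehf had a tested difference of the IFNγ effect between the genotypes (interaction, log2 -0.39, edgeR adjusted p = 0.0308). No group held 4 libraries, so single values were not tested as outliers within groups.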

How the results depend on the processing

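In the genotype and IFNγ comparisons no count of members or list genes called moved by over 1.5 times, while the 1 list gene called for the interaction, Ehf, was lost without any of 9 single libraries. Members called ranged from 5 to 7 in the untreated comparison (6 as reported), from 6 to 8 in each of the other 2 genotype and the 2 IFNγ comparisons (7, 8, 7 and 7), and stayed at 0 for the interaction. Of 629 member values under alternatives none changed direction where it was called, 8 lost and 7 gained the threshold, and of 766 values of named list genes 36 lost it. Beyond those in the report, Pigr without IFNγ gained it without Sin3Bsg1 −IFNγ replicate 2 (log2 2.94), and Agr2 with IFNγ in Sin3Bsg1 cells gained it with a minimum of 10 counts in every library (log2 -0.89) and without Sin3Bsg1 +IFNγ replicate 2 (log2 -1.27). The losses among list genes were of Gfi1, Fut4, Foxa1, Mucl3 and Ehf. All genes called moved from 2568 to 3996 without IFNγ and from 2464 to 1500 with it when only the 6 libraries of the comparison were fitted, and for the interaction from 17 to 32 with DESeq2, 110 with a minimum of 1 count and 1 to 33 when a library was left out, settings for all genes that were added after seeing the data; the cause was not tested.

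Replicate numbers gave little sign of pairing the libraries, apart from 2 pairs with IFNγ. Deviations of same-numbered libraries correlated by -0.03 to 0.15, above 0.1 in 2 of 20 pairs. Differently numbered libraries gave -0.16 to 0.08, above 0.1 in 0 of 38 pairs. The 2 pairs above 0.1 were sgCtrL +IFNγ with Sin3Bsg1 +IFNγ, at replicate 1 (0.15) and replicate 2 (0.13). With the replicate number as a block, 7 members were called in the untreated comparison, Muc5ac being added (log2 0.32), and 7, 8, 7 and 7 in the others. Depth limits Tff1, Tff2, Pigr and Agr2, whose groups summed to 0 to 142 counts.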
